A study of Mus musculus with 4 samples.

Results

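The genes of oxidative phosphorylation were followed through single-cell libraries of mouse inner ear organoids. They were taken by gene symbol: Nduf with a letter and a number, the 4 succinate dehydrogenase genes, Uqcr, Cox4 to Cox8 and Atp5. The protein-coding genes of the mitochondrial genome were taken too. The rule found 98 of the 32289 listed genes, 85 in the nucleus and 13 in mitochondrial DNA. By symbol, the nuclear members comprised 38 genes of complex I, 4 of complex II, 8 of complex III, 18 of complex IV and 17 of complex V. The mitochondrial ones comprised 7 of complex I, 1 of complex III, 3 of complex IV and 2 of complex V. Ndufa4 and its copy Ndufa4l2 were counted with complex I by their names, although Ndufa4 is a subunit of complex IV. Some symbols of the pathway fall outside the rule, such as Ndufab1, the mitochondrial acyl carrier protein, which was kept with the electron carriers, while Cox7a2l, a factor that joins complexes III and IV, falls inside it.

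Inner ear organoids are aggregates grown from stem cells in which hair cells, supporting cells and neurons form beside skin, cartilage and brain cell types. The organoids came from the mouse Atoh1-nGFP embryonic stem cell line, which carries a nuclear green fluorescent protein (GFP) reporter of Atoh1, a transcription factor gene of hair cells, and they were dissociated whole and sorted on GFP. The 4 libraries were GFP high and GFP low cells of day 21, cells of day 20 and cells of day 16, and each group was 1 library. The labels give 1 line for the 4 libraries and do not say which GFP gate was used at days 20 and 16. Their description speaks of single nuclei and their protocol of cells. They call all cells otic lineage, although clusters with neuron, skin, muscle and mesenchyme markers were present.

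Oxidative phosphorylation passes electrons from NADH and succinate through complexes I to IV to oxygen, and complex V uses the proton gradient that results to make ATP. Most subunits are encoded in the nucleus, while a small core of complexes I, III, IV and V is encoded in mitochondrial DNA, which is transcribed as long polycistronic RNAs from both strands. Several nuclear subunits exist as alternative copies, and sensory hair cells are known for a high demand for ATP in transduction and synaptic release.

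After filtering, the libraries held 3435 GFP high, 3686 GFP low, 4348 day 20 and 3376 day 16 cells, with 107286049, 93060469, 42460654 and 57783705 unique molecular identifiers (UMIs). The median depth was 28877 UMIs per GFP high cell, 22175 per GFP low cell, 8848.5 per day 20 cell and 15231.5 per day 16 cell. Levels are CPM, the UMIs of a gene scaled to a common library total and summed over the cells of a library or class. With 1 library a group, no test across replicates exists: a gene passed as higher or lower where its CPM differed at least 1.5-fold and the exact conditional binomial 95% interval of the ratio excluded 1, among genes at 10 CPM or more on either side. Intervals cover counting error only, and differences between cultures, sorts or library preparations cannot be told apart from the groups. Cell classes were named from marker genes after clustering without the members. Supporting-cell-like cells, which reached 50 cells in GFP high and GFP low, had 12 of their 13 markers at 10 CPM or more in both, and every other named class had its whole list in each library where it reached 50 cells. Less RNA of a gene per cell and fewer cells holding it cannot be told apart in a summed level.

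Their summed level was 35742 CPM in GFP high cells, 32548 CPM in GFP low cells, 33326 CPM in day 20 cells and 29147 CPM in day 16 cells. The 13 mitochondrial members summed to 54284 CPM in GFP high, 41616 CPM in GFP low, 11733 CPM in day 20 and 27138 CPM in day 16 cells. The mitochondrial sum thus differed far more between libraries than the nuclear sum. At 10 CPM or more there were 81 nuclear members in GFP high, 82 in GFP low, 81 in day 20 and 80 in day 16 cells, of 85. Cox8c, a testis-type copy of the complex IV subunit 8, had 1 UMI in GFP high, 36 in GFP low, 0 in day 20 and 4 in day 16 cells. The 0 at day 20 allows a level of up to 0.0707 CPM, taken as 3 counts in that library.

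Hair-cell-like cells held the highest nuclear sum of the named classes in each of the 4 libraries. It was 39230 CPM in GFP high, 40591 CPM in GFP low, 45244 CPM in day 20 and 38092 CPM in day 16 hair-cell-like cells, from 2218, 813, 145 and 188 cells. Neuron-like cells came next in every library, with 31263, 32835, 41115 and 30327 CPM in GFP high, GFP low, day 20 and day 16. That class pooled unlike clusters: at day 20 the 121 cells of the cluster led by Calb1 had 49324 CPM, above hair-cell-like cells. The clusters led by Slc32a1, Otp and Syt4 had 45107, 37310 and 31549 CPM there. The lowest class was epidermis-like in GFP high, at 25148 CPM, and in GFP low, at 24918 CPM, while mesenchyme-like cells were lowest at day 20, with 26852 CPM, and at day 16, with 23060 CPM. The mitochondrial sum gave another order: hair-cell-like cells led in GFP high, with 64006 CPM, and in GFP low, with 77401 CPM, whereas neuron-like cells led at day 20, with 18558 CPM beside 17493 CPM in hair-cell-like cells, and at day 16, with 33147 CPM beside 32434 CPM. Both orders were read from single libraries, and the class median depth ran from 8133 UMIs in day 20 neuron-like cells to 80467 UMIs in GFP low pluripotent-like cells.

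**Figure D1:**
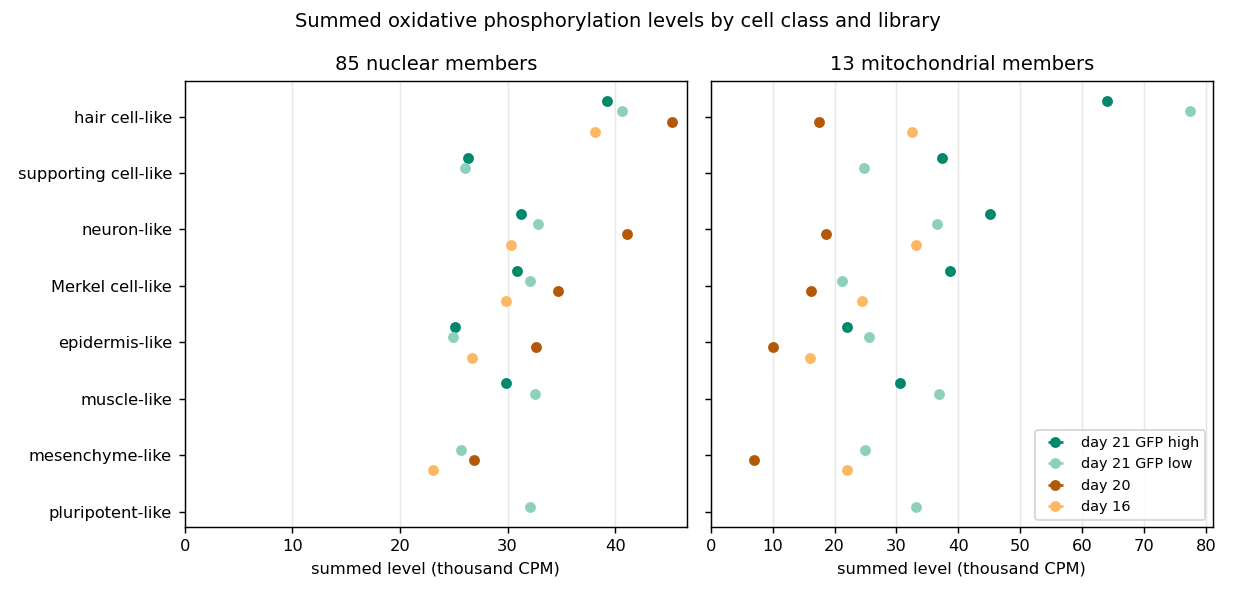
Summed CPM of the nuclear members (left) and of the mitochondrial members (right) in each named cell class (rows) and library (colours), with exact Poisson 95% intervals that are mostly narrower than the points. Nuclear sums lie between 23060 and 45244 CPM and mitochondrial sums between 7041 and 77401 CPM.

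Over the 24 combinations of a named class and a library, the median standard deviation of log2(CPM + 1) was 0.39 for 82 nuclear members and 0.82 for the 13 mitochondrial members. The same value was 0.67 over 9747 genes of at least 10 CPM on average and 0.56 over the 1521 genes of at least 100 CPM. The steadiest nuclear members were Uqcr10 and Cox6c, small subunits of complexes III and IV, each with an SD of 0.24, and Cox4i1 and Atp5e, each with 0.25. Cox4i1, the ubiquitous copy of complex IV subunit 4, ranged from 841 CPM in day 20 mesenchyme-like to 1496 CPM in GFP low pluripotent-like cells. At the other end stood alternative copies: Ndufa4l2 with an SD of 2.34, Cox6a2 with 2.04, Cox7a1 with 1.94 and Cox4i2 with 1.77. Among the mitochondrial members the SD was lowest for mt-Nd5, at 0.49, and highest for mt-Nd3, at 1.29.

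Hair-cell-like and supporting-cell-like cells were compared within each day 21 gate, since supporting-cell-like cells reached 50 cells only there. In GFP high, 38 nuclear members were higher and 4 lower in hair-cell-like cells among 81 tested, and in GFP low 45 were higher and 4 lower among 81. Over all genes tested in GFP high, 28.7% were higher and 22.7% lower, 51.4% in all; over those in GFP low, 29.9% were higher and 25.4% lower, 55.4% in all. The median log2 ratio of the nuclear members was 0.58 in GFP high and 0.64 in GFP low, beside 0.08 over all genes in each gate. In both gates 35 nuclear members were higher, the 4 lower ones were Ndufa4l2, Cox4i2, Cox7a1 and Cox6b2 each time, and 0 went opposite ways. Of all 9868 genes tested in both gates, 24.8% were higher in both.

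By complex, the nuclear sum stood highest relative to supporting-cell-like cells for complex V. It was 11943 CPM in hair-cell-like against 7014 CPM in supporting-cell-like cells of GFP high, a ratio of 1.70 (95% interval 1.69 to 1.72), and 12289 against 6567 CPM in GFP low, a ratio of 1.87 (1.86 to 1.89). Of the 17 complex V genes, 10 were called higher in GFP high and 12 in GFP low, with 0 lower in either. The counts by complex are to be read beside the shares of all genes tested. Those were 28.7% higher and 22.7% lower in GFP high and 29.9% higher and 25.4% lower in GFP low. Complex I by symbol, Ndufa4 and Ndufa4l2 included, summed to 13309 CPM in hair-cell-like against 9531 CPM in supporting-cell-like cells of GFP high. In GFP low it summed to 13263 against 9629 CPM. Of its 38 genes, 17 and 19 were higher, and Ndufa4l2, placed there by its name, was the 1 lower in each gate. Complex IV by symbol, without Ndufa4l2, held 3 of the 4 lower genes. It also held 7 higher genes in GFP high and 8 in GFP low, of 14 tested.

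Atp5mpl, a small membrane subunit of ATP synthase, had the highest ratio of the nuclear members in both gates. It reached 1714 CPM in hair-cell-like against 479 CPM in supporting-cell-like cells of GFP high, 3.57-fold (3.45 to 3.71), and 2233 against 405 CPM in GFP low, 5.51-fold (5.34 to 5.69). Ndufv3, an accessory subunit at the NADH-binding tip of complex I, had 886 against 290 CPM in GFP high, 3.06-fold (2.92 to 3.20), and 843 against 340 CPM in GFP low, 2.48-fold (2.39 to 2.57). Among the 5 highest in both gates were also Atp5j, a subunit of the stalk of ATP synthase, at 2.37-fold in GFP high and 2.86-fold in GFP low, and Cox6a1, the ubiquitous copy of complex IV subunit 6A, at 2.27-fold and 2.66-fold. Ndufs1, the largest subunit of complex I, was 2.37-fold higher in GFP high, with 93.8 against 39.6 CPM, and Ndufa5, a subunit of its peripheral arm, 2.68-fold higher in GFP low, with 489 against 183 CPM. In complex II, Sdhc and Sdhd, its membrane anchors, were higher in both gates, with ratios of 1.51 and 1.52 in GFP high and 1.89 and 1.78 in GFP low. Sdha, the flavoprotein, reached 1.47 in GFP high, below the rule, and 1.82 in GFP low, while Sdhb, the iron-sulfur subunit, stood at 1.13 (1.05 to 1.22) and 1.07 (0.994 to 1.14).

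The 4 lower members are alternative copies of subunits. Ndufa4l2, a copy of Ndufa4 that lies at chr10:127514967-127517154 (GRCm38, plus strand) and is known as a gene induced by low oxygen, had 36.4 CPM in hair-cell-like against 982 CPM in supporting-cell-like cells of GFP high, and 45.4 against 1458 CPM in GFP low. The ratios were 0.0371 (0.0354 to 0.0389) and 0.0311 (0.0291 to 0.0333). Cox4i2, the copy of complex IV subunit 4 known from lung and from cells that sense oxygen, lies at chr2:152754173-152765037 (plus strand) and had 51.2 against 709 CPM in GFP high and 46.6 against 942 CPM in GFP low. Cox7a1, the copy of subunit 7A known from heart and muscle, at chr7:30184144-30186078 (plus strand), had 22.1 against 165 CPM and 26.6 against 165 CPM. Cox6b2, a copy of subunit 6B known from testis, had 24.7 against 55.6 CPM and 13.7 against 56.9 CPM. In GFP high, 23.3% of hair-cell-like against 86.3% of supporting-cell-like cells held a Ndufa4l2 UMI. For Cox4i2 it was 35.4% against 94.5%, for Cox7a1 28.6% against 75.3% and for Cox6b2 40.2% against 57.6%. In GFP low the values were, in the same order, 20.5% against 91.9%, 28.3% against 96.4%, 28% against 66.4% and 20.3% against 42%. Of their ubiquitous partners, Ndufa4 and Cox7a2 passed as higher in both gates: Ndufa4 had 1244 against 663 CPM in GFP high and 1229 against 581 CPM in GFP low, and Cox7a2 had 816 against 416 CPM and 821 against 405 CPM. Cox4i1 had 1442 against 964 CPM, just under the rule, and 1483 against 952 CPM, 1.56-fold. Cox6b1 had 734 against 588 CPM and 730 against 535 CPM, which did not pass. Ndufa4l2 overlaps Shmt2 on the other strand and Cox4i1 overlaps Emc8, and the strand setting of the counting is not given in the sources used here.

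**Figure D2:**
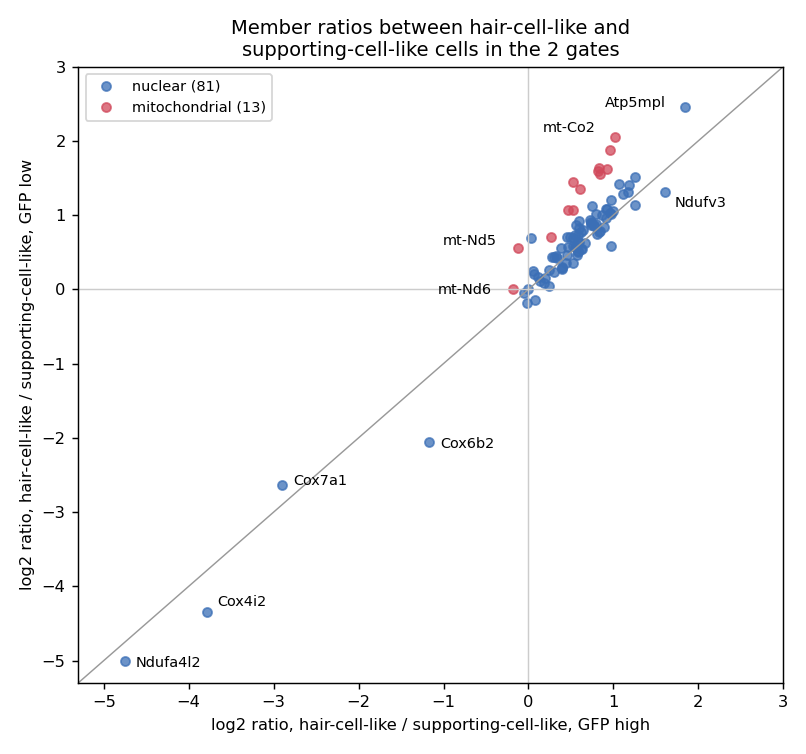
Log2 ratio of each member's CPM, hair-cell-like over supporting-cell-like, in GFP high (x axis) and in GFP low (y axis), for 81 nuclear and 13 mitochondrial members, with the line of equal ratios. Ndufa4l2, Cox4i2, Cox7a1 and Cox6b2 lie below 0 on both axes, and the 13 mitochondrial members lie above the line.

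Of the 13 mitochondrial members, 7 passed as higher in hair-cell-like cells in both gates. The ratio of the sums was larger in GFP low than in GFP high, a difference that was not tested. Their sum was 64006 CPM in hair-cell-like against 37302 CPM in supporting-cell-like cells of GFP high, a ratio of 1.72 (1.71 to 1.72). In GFP low it was 77401 against 24837 CPM, 3.12 (3.10 to 3.13). Not every hair-cell-like cluster shared this excess. The cluster led by Pvalb had 42094 CPM in GFP high and 13134 CPM in GFP low, the latter below supporting-cell-like cells. The clusters led by Cib3, Ocm and Kcna10 lay above supporting-cell-like cells in each gate. In GFP high 7 of 13 were called higher and in GFP low 11 of 13, with 0 lower, beside 28.7% and 29.9% of all genes higher. The sum ratio depended on the filter. With at most 10% mitochondrial UMIs its log2 was 0.54 against 0.78 in GFP high and 1.18 against 1.64 in GFP low. mt-Co2, a catalytic core subunit of complex IV, had the highest ratio in both, 2.03-fold with 12138 against 5985 CPM in GFP high and 4.13-fold with 16547 against 4008 CPM in GFP low. mt-Nd5 and mt-Nd6, complex I subunits from overlapping genes of opposite strands, were not called in either gate: mt-Nd5 had 360 against 390 CPM and 426 against 291 CPM, and mt-Nd6 26.3 against 29.8 CPM and 23.0 against 22.8 CPM. Depth moved with the classes, with median UMIs of 29823 in hair-cell-like against 20600 in supporting-cell-like cells of GFP high and 25155 against 15128 in GFP low. Its part in the result was not tested. Hair-cell-like cells also held 10.4 CPM of Otog in GFP high and 13.8 CPM in GFP low, and supporting-cell-like cells 118 and 49.5 CPM of Pou4f3, beside 612 and 458 CPM in hair-cell-like cells. The 13 supporting cell markers summed to 489 CPM in hair-cell-like against 3945 CPM in supporting-cell-like cells of GFP high and 355 against 3479 CPM in GFP low. The 15 hair cell markers summed to 9058 against 1448 CPM and 7123 against 1277 CPM. The supporting-cell-like cluster was also led by the cartilage genes Col9a1 and Col2a1.

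Genes around the complexes gave mixed counts between these classes, to be read beside the 28.7% higher and 22.7% lower of all genes in GFP high and the 29.9% higher and 25.4% lower in GFP low. Of the tricarboxylic acid cycle genes, 9 were higher and 2 lower among 17 in hair-cell-like cells of GFP high, and 8 higher and 2 lower in GFP low, with median log2 ratios of 0.59 and 0.51. Idh3a, a subunit of the NAD-dependent isocitrate dehydrogenase, had 128 against 43.6 CPM in GFP high and 112 against 33.7 CPM in GFP low, whereas Idh2, the NADP-dependent enzyme, had 17.2 against 40.5 CPM and 13.6 against 47.5 CPM. Of 43 assembly factors tested, 12 were higher and 3 lower in GFP high and 10 higher and 3 lower in GFP low, led by Ndufaf6, an assembly factor of complex I, at 3.09-fold and 3.36-fold. Electron carriers, coupling proteins and inhibitors had 6 higher and 1 lower of 12 in GFP high and 6 higher and 3 lower in GFP low, with Cycs, cytochrome c, at 484 against 214 CPM and 398 against 196 CPM. Glycolysis genes had 5 higher and 8 lower of 19 in GFP high and 4 higher and 8 lower in GFP low. Slc2a3, a glucose transporter, had 8.12 against 58.2 CPM and 13.5 against 97.6 CPM, while Eno2, the neuronal enolase, had 240 against 51.7 CPM and 329 against 83.5 CPM. For mitochondrial DNA upkeep and transcription, 3 were higher and 5 lower of 17 in GFP high and 5 higher and 4 lower in GFP low. Ssbp1, which coats single-stranded mitochondrial DNA, had 112 against 206 CPM and 92.8 against 218 CPM. Stress response genes had 3 higher and 3 lower of 12 in GFP high and 1 higher and 6 lower of 14 in GFP low.

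The balance between alternative copies separated the cell classes. A share here is the part of a pair's UMIs that fell on the alternative copy, with exact Clopper-Pearson 95% intervals, and it is a share of UMIs, not of protein. Ndufa4l2 took 59.7% (58.8 to 60.7) of the Ndufa4 and Ndufa4l2 UMIs in supporting-cell-like cells of GFP high and 71.5% (70.9 to 72.1) in those of GFP low. It took 2.85%, 3.56%, 6.76% and 2.82% in hair-cell-like and 4.54%, 3.99%, 2.06% and 4.46% in neuron-like cells of GFP high, GFP low, day 20 and day 16. Hair-cell-like clusters differed: in GFP low the share was 23.2% in the 75 cells of the Pvalb cluster. It was 2.13% in the Cib3, 1.16% in the Ocm and 1.62% in the Kcna10 cluster of GFP low. Among the named classes the share was highest in Merkel cell-like cells, touch cells of the skin that also express Atoh1. It was 79.0% in GFP high, 92.1% in GFP low, 89.7% at day 20 and 82.7% at day 16, and epidermis-like cells held 65.5%, 78.8%, 82.1% and 75.8%. Hair-cell-like and Merkel cell-like cells, both with Atoh1-expressing counterparts in the animal, thus differed widely in this share in every library.

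Cox4i2 and Cox7a1 followed other classes. Cox4i2 took 42.4% (41.4 to 43.3) of the Cox4i1 and Cox4i2 UMIs in supporting-cell-like cells of GFP high and 49.7% (49.0 to 50.5) in those of GFP low, but 1.11%, 4.55%, 4.81% and 1.37% in Merkel cell-like cells of GFP high, GFP low, day 20 and day 16. Hair-cell-like cells held 3.43%, 3.05%, 12.8% and 3.94%. Cox7a1 took 28.4% (27.0 to 29.9) and 28.9% (27.7 to 30.1) of the Cox7a1 and Cox7a2 UMIs in supporting-cell-like cells of GFP high and GFP low, 21.9% (20.8 to 23.0) in pluripotent-like cells of GFP low, and 2.64%, 3.14%, 2.56% and 1.14% in hair-cell-like cells. The unnamed cluster led by Mia, Oc90 and Otol1, otic epithelial genes, lay between hair-cell-like and supporting-cell-like cells, with a Ndufa4l2 share of 22.0% in GFP high and 31.3% in GFP low and a Cox4i2 share of 25.2% and 26.6%.

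Rarer copies were found at low shares. Cox6a2, the heart and muscle copy of subunit 6A, took 26.7% (24.7 to 28.7) of the Cox6a1 and Cox6a2 UMIs in muscle-like cells of GFP low and 9.68% (7.35 to 12.4) in those of GFP high, beside 12.8% (10.3 to 15.6) in mesenchyme-like cells of GFP low. Merkel cell-like cells held 8.72% in GFP low and 6.66% in GFP high, and epidermis-like cells 6.39% and 5.93%. Hair-cell-like cells held 0.0721% in GFP high and 0.0236% in GFP low. The muscle-like shares rest on few cells, since 6.78% of the 118 muscle-like cells of GFP low and 6.67% of the 60 of GFP high held a Cox6a2 UMI. Cox8b, the muscle copy of subunit 8, took 3.08% (2.57 to 3.67) in muscle-like cells of GFP low, where 6.78% of the cells held a UMI of it. Cox6b2 took 21.7% (20.4 to 23.1) and Cox7b2, a testis-type copy, 8.36% (7.51 to 9.28) of their pairs in the 87 pluripotent-like cells of GFP low. Of the 3 genes for the ring subunit c of complex V, which encode the same mature protein, Atp5g2 took 41.3%, Atp5g1 32.2% and Atp5g3 26.5% in hair-cell-like cells of GFP high, and 51.9%, 27.8% and 20.4% in supporting-cell-like cells of GFP high.

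**Figure D3:**
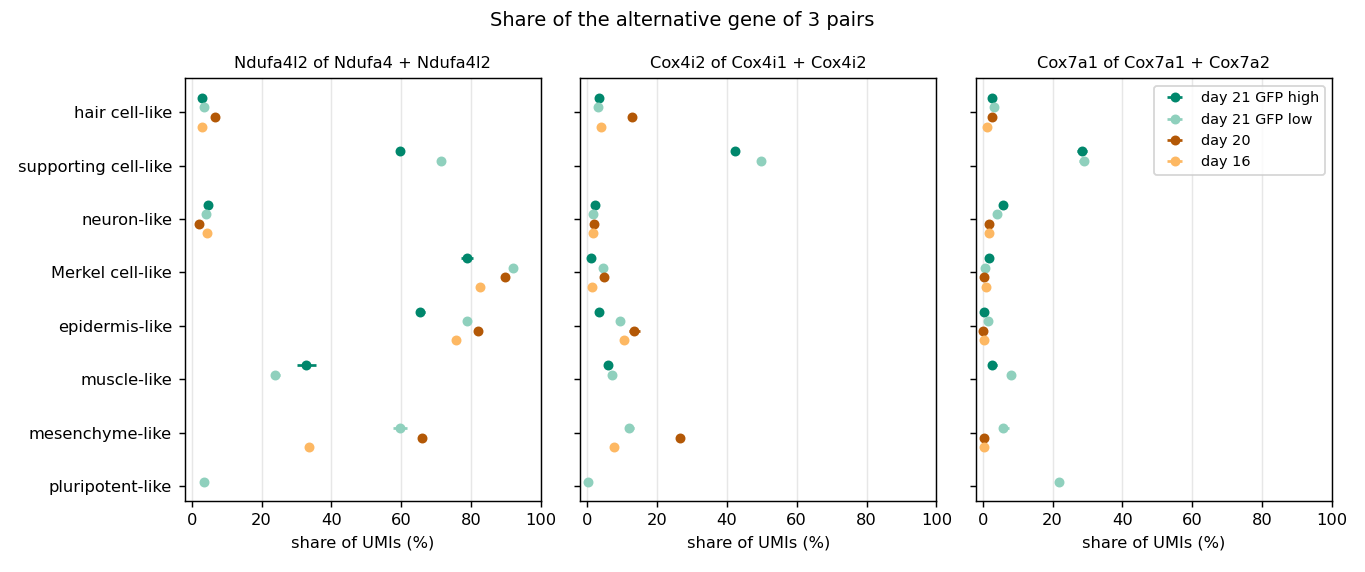
Share of the alternative copy's UMIs in 3 pairs (panels) by named class (rows) and library (colours), with exact Clopper-Pearson 95% intervals. Ndufa4l2 reaches 92.1% in Merkel cell-like cells, Cox4i2 49.7% and Cox7a1 28.9% in supporting-cell-like cells, all in GFP low.

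Promoter entries for Atp5mpl, Ndufa4l2 and Cox4i2, at the ends of the comparison between hair-cell-like and supporting-cell-like cells, were missing from the sources used here. In both gates Cox7a1 was among the 5 lowest nuclear ratios, and Cox6a1 and Ndufv3 were among the 5 highest. Promoters are shown for Cox7a1 and its ubiquitous partner Cox7a2, Cox6a1 and Ndufv3. They are the 250 bases before the gene's start in RefSeq (GRCm38.p6), 5′ to 3′ on the gene's strand, and capitals mark a match to the palindromic 10-letter consensus of NRF1, a transcription factor known to act on many respiratory genes.
Cox7a1, chr7:30183921-30184170, plus strand: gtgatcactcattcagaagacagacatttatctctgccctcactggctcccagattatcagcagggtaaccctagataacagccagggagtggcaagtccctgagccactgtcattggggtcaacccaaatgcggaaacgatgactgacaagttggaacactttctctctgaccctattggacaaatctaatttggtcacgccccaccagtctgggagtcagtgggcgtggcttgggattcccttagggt
Cox7a2, chr9:79759854-79760103, minus strand: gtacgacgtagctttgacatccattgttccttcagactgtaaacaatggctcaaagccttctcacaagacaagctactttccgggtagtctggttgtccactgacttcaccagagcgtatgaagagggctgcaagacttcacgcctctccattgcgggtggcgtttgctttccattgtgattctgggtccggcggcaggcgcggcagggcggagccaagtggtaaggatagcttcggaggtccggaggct
Cox6a1, chr5:115348959-115349208, minus strand: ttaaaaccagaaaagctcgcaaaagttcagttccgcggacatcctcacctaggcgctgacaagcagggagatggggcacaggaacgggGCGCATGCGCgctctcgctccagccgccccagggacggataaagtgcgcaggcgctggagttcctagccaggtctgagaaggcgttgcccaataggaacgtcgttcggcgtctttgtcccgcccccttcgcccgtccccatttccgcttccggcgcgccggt
Ndufv3, chr17:31519865-31520114, plus strand: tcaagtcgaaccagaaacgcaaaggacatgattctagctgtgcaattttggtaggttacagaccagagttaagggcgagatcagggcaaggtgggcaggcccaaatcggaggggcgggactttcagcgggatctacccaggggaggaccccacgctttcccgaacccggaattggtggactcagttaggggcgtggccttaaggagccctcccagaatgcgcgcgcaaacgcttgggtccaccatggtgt
The match begins 162 bases before the start in Cox6a1, and none of the searched motifs was in the printed 250 bases of the other 3 genes. RefSeq promoters were matched for 67 of the 85 nuclear members, in 72 windows that run from 250 bases before to 50 after the start, and both strands were searched. The NRF1 consensus was in 5 of the members' 72 windows, 6.94%, and in 0.971% of all 32851 windows. Over the 24834 windows of genes listed in these data it was in 1.18%. CCGGAAGT, for ETS factors, was in 5 of the members' windows, 6.94%, against 3.89% of all and 4.77% of listed genes' windows. The YY1 consensus was in 4, 5.56%, against 0.633% and 0.797%. ACGTG, the core of the hypoxia response element, was in 17, 23.6%, against 19.6% and 20.7%. The longer windows of Cox7a1 and Ndufv3 hold ACGTG, outside the bases printed. These are matches of letters and not evidence of binding.

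Day 20 and day 16 cells differed most in the mitochondrial members. All 13 were lower at day 20 in CPM, and 12 of 13 passed the rule, beside 23% of all genes tested that were lower and 10.2% that were higher, 33.2% in all. The sum was 11733 CPM at day 20 against 27138 CPM at day 16, a ratio of 0.432 (0.431 to 0.434). mt-Nd3, a small complex I subunit, had the lowest ratio, 0.237 (0.226 to 0.248), with 51.3 CPM at day 20 against 217 CPM at day 16. mt-Co1, the catalytic subunit of complex IV, had 3284 against 4769 CPM, a ratio of 0.689 that did not pass. By complex the ratio was 0.374 for complex I, 0.548 for complex III, 0.476 for complex IV and 0.270 for complex V. Only 4 barcodes of day 20 were removed for over 15% mitochondrial UMIs, against 193 of day 16, and Malat1, a nuclear RNA, had 12236 CPM at day 20 against 18655 CPM at day 16. Depth, Malat1 and the filter moved with the days, and their part in the result was not tested.

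The nuclear members had 5 higher and 5 lower among 81 tested between the days. Over all genes tested, 10.2% were higher and 23% lower, 33.2% in all. Cox4i2 had 175 CPM at day 20 against 56.0 CPM at day 16, 3.13-fold, and Ndufa4l2 1226 against 419 CPM, 2.92-fold (2.88 to 2.97). The other higher genes were complex I subunits: Ndufa3 with 269 against 170 CPM, Ndufs7 with 261 against 173 CPM and Ndufv3 with 509 against 338 CPM. The lower genes included subunits of the catalytic head of complex V, Atp5b with 322 against 557 CPM and Atp5a1 with 270 against 405 CPM. Ndufa9, a complex I subunit, had 50.6 against 82.8 CPM, Sdha 46.2 against 69.7 CPM and Cox7a2l 232 against 354 CPM. The split depended on scaling: with TMM factors, which shift log2 ratios by 0.19, 13 members were higher and 1 lower. Those factors called 29.4% of all genes. With the class mix of day 16, 7 members were higher and 0 lower, beside 20.8% of all genes called, so none of the 5 lower genes passed. The nuclear sum ratio was 1.14, with a median log2 ratio of 0.16 for the members beside -0.19 for all genes.

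The day difference was present inside the named classes. The mitochondrial ratio of day 20 to day 16 was 0.320 in mesenchyme-like, 0.539 in hair-cell-like, 0.560 in neuron-like, 0.630 in epidermis-like and 0.667 in Merkel cell-like cells. The nuclear ratio was 1.16 in Merkel cell-like and mesenchyme-like, 1.19 in hair-cell-like, 1.22 in epidermis-like and 1.36 in neuron-like cells. The 2 sums thus lay on opposite sides of 1 in each of the 5 classes. The mesenchyme-like cells came mostly from different clusters, with 1557 of 2038 at day 20 in the cluster led by Dcn, Lum and Mgp. In the cluster led by Col1a1, Bgn and Col3a1, which held 145 day 20 and 303 day 16 cells, the nuclear sum was 25735 against 23581 CPM and the mitochondrial sum 7228 against 14688 CPM. Ndufa4l2 had 1745 against 551 CPM there and Cox4i2 601 against 178 CPM. In the Merkel cell-like cluster led by Ccer2, Ndufa4l2 had 2326 CPM at day 20 against 1400 CPM at day 16.

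**Figure D4:**
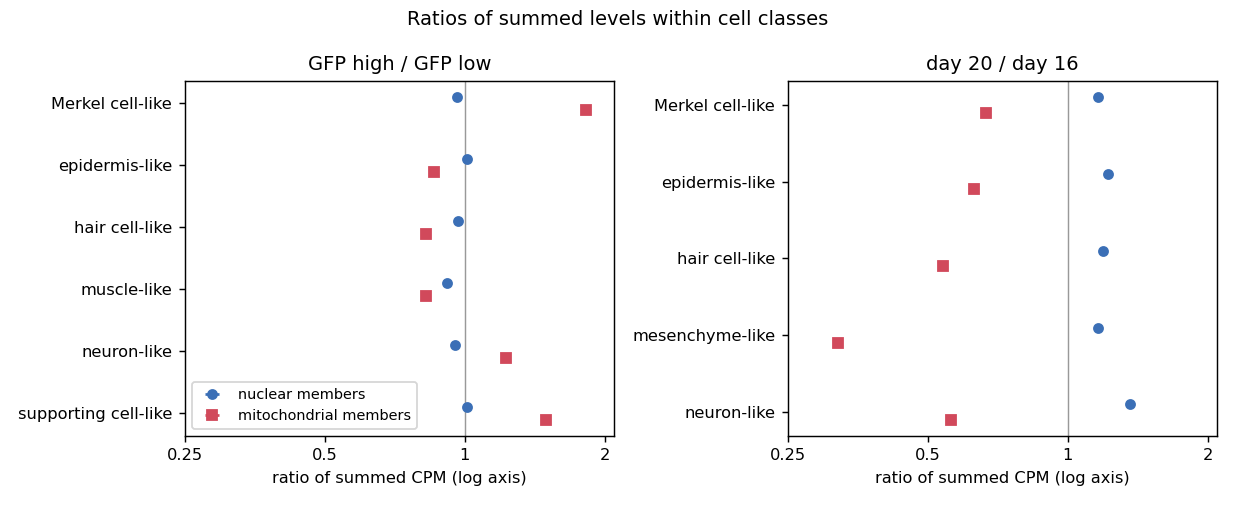
Ratio of summed CPM (log axis) within each named class, GFP high over GFP low (left) and day 20 over day 16 (right), for nuclear members (circles) and mitochondrial members (squares), with 95% intervals narrower than most points. At day 20 every class has a nuclear ratio above 1, from 1.16 to 1.36, and a mitochondrial ratio below 1, from 0.320 to 0.667.

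Among the lists around the pathway, glycolysis had 5 higher and 0 lower of 19 between day 20 and day 16, with a median log2 ratio of 0.43, beside 10.2% of all genes higher and 23% lower. Ldha, lactate dehydrogenase, had 1727 against 958 CPM, Slc2a1, a glucose transporter, 209 against 116 CPM and Gpi1, glucose phosphate isomerase, 1022 against 621 CPM. Of the carriers and coupling proteins 1 of 12 was higher, Higd1a, a hypoxia-inducible inner membrane protein, with 1018 against 499 CPM. The tricarboxylic acid cycle had 1 higher and 2 lower of 17: Idh2 with 165 against 94.2 CPM, Sucla2, a succinyl-CoA ligase subunit, with 66.4 against 125 CPM, and Cs, citrate synthase, with 30.8 against 53.9 CPM. Assembly factors had 1 higher and 2 lower of 42, upkeep genes 0 higher and 1 lower of 15, and stress response genes 3 higher and 1 lower of 14.

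Between GFP high and GFP low cells of day 21 as a whole, 2 nuclear members were higher and 2 lower among 82, beside 13.3% of all genes higher and 15.2% lower, 28.5% in all. Atp5mpl had 1281 CPM in GFP high against 795 CPM in GFP low, 1.61-fold (1.60 to 1.63), and Ndufv3 702 against 451 CPM, 1.56-fold (1.54 to 1.57). Ndufa4l2 had 219 against 402 CPM and Cox6a2 2.08 against 10.0 CPM, and 10 cells held 71.3% of the Cox6a2 UMIs in GFP high and 68.7% in GFP low. Of the mitochondrial members mt-Nd3, with 729 against 450 CPM, and mt-Atp8, a complex V subunit, with 70.2 against 45.7 CPM, were higher, and the sum ratio was 1.30. The classes differed in number, with 64.6% hair-cell-like and 6.72% neuron-like cells in GFP high against 22.1% and 30.9% in GFP low. With the class mix of GFP low, the log2 ratio of Atp5mpl was -0.21 and that of Ndufv3 -0.06. The log2 ratio of the mitochondrial sum was 0.09 with that mix, against 0.38 without it. Of the lists, assembly factors had 2 higher and 1 lower of 43, upkeep genes 1 and 2 of 18, carriers 0 and 1 of 13, the tricarboxylic acid cycle 1 and 1 of 17, glycolysis 0 and 2 of 19 and stress response genes 2 and 4 of 13.

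Within hair-cell-like cells, the gates differed in few members: 1 nuclear member was higher and 1 lower of 81, and 0 of 13 mitochondrial members passed, beside 7.69% of all genes higher and 4.63% lower, 12.3% in all. Cox6b2 had 24.7 CPM in GFP high against 13.7 CPM in GFP low, 1.81-fold (1.59 to 2.06), and Cox7a2l 407 against 660 CPM, a ratio of 0.617 (0.604 to 0.630). Neither gene passed with the cluster mix of GFP low, which gave 0 higher and 2 lower members, beside 4.95% of all genes called. Atp5mpl had 1714 against 2233 CPM and Cox8a, the ubiquitous copy of subunit 8, 1948 against 2512 CPM, both short of the rule. Outside the complexes, Psat1, a serine synthesis enzyme of the stress response list, had 286 against 76.1 CPM and Sucla2 300 against 109 CPM. The stress response list had 3 higher and 0 lower of 12, the tricarboxylic acid cycle 1 and 0 of 17, carriers 1 and 0 of 12, glycolysis 1 and 1 of 19, upkeep genes 0 and 1 of 15 and assembly factors 0 and 0 of 41.

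The 4 hair-cell-like clusters differed from each other more than the gates did within most of them. The cluster led by Kcna10 had 95027 CPM of mitochondrial members in GFP high against 100777 CPM in GFP low, and that led by Ocm, oncomodulin, 88128 against 79678 CPM. The cluster led by Cib3, a transduction channel partner, had 72494 against 66713 CPM and that led by Pvalb, parvalbumin, 42094 against 13134 CPM. The Pvalb cluster had the lowest level in both gates and held 38.8% of hair-cell-like cells in GFP high against 9.23% in GFP low, while the Kcna10 cluster held 3.56% against 37.5%. Atp5mpl had 3262 against 2987 CPM in the Kcna10, 2742 against 2513 CPM in the Ocm, 1886 against 1725 CPM in the Cib3 and 907 against 693 CPM in the Pvalb cluster. It was thus above GFP low in GFP high in 4 of 4 clusters and below it over the class as a whole. Cox6b2 had 15.4 against 9.53 CPM in the Kcna10, 10.6 against 8.15 CPM in the Ocm, 18.2 against 12.8 CPM in the Cib3 and 37.9 against 44.4 CPM in the Pvalb cluster. Cox7a2l had 812 against 985 CPM in the Kcna10, 516 against 771 CPM in the Ocm, 373 against 361 CPM in the Cib3 and 342 against 399 CPM in the Pvalb cluster. So neither gene kept 1 direction in all 4 clusters. The mitochondrial sum was above GFP low in 3 of 4 clusters and below it over the class. The nuclear sum ran from 36263 to 47476 CPM over the clusters in GFP high and from 34905 to 47422 CPM in GFP low.

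**Figure D5:**
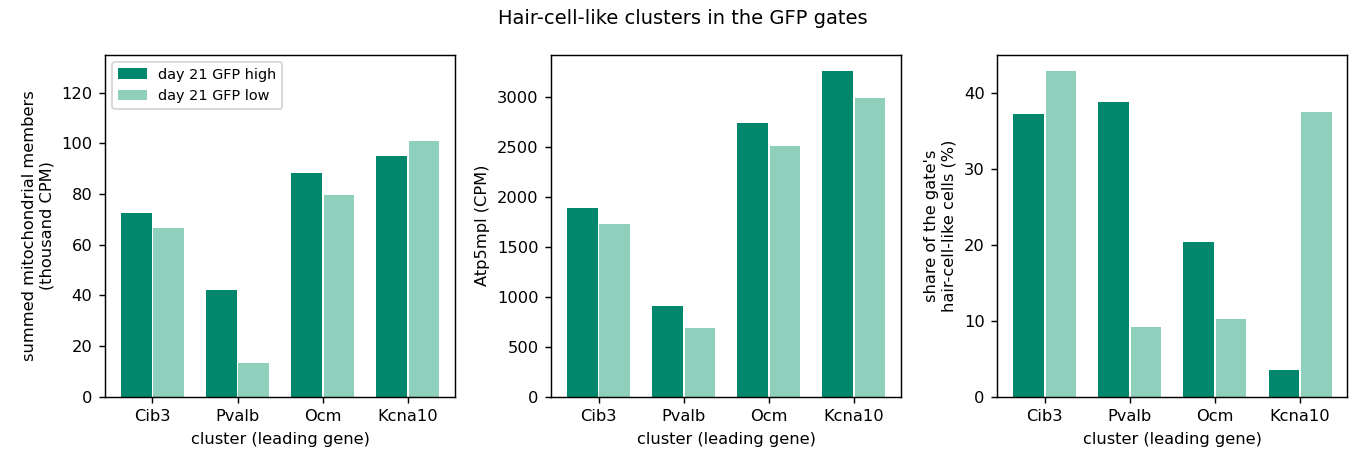
Summed mitochondrial members, Atp5mpl and the share of the gate's hair-cell-like cells in the 4 hair-cell-like clusters (x axis, by leading gene), GFP high and GFP low. Atp5mpl is above GFP low in GFP high in all 4 clusters, while the Kcna10 cluster with the highest levels holds 3.56% of the class in GFP high and 37.5% in GFP low.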

How the data were processed

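Single-cell libraries were made with 10x Genomics chemistry. The authors deposited raw UMI counts per gene and cell barcode, written by Cell Ranger 6.1.2 per the file headers, while the submitters' processing notes name Cell Ranger 6.1.0, Seurat 4.0.6 and mm10. The sources used here give neither the annotation nor the strand setting. Barcodes with at least 1000 genes and at most 15% mitochondrial UMIs were kept, and the highest Scrublet scores were removed at 0.8% per 1000 barcodes. Libraries shared 1 to 8 barcodes per pair. Cells were clustered on 2000 variable genes without the members or other mitochondrial genes, with 30 principal components, 20 neighbours and Leiden resolution 1 (Python 3.11.15, scanpy 1.11.5, leidenalg 0.10.2), and classes needed 50 cells in a library. Ratios of summed counts have exact intervals (scipy 1.17.1), with no test across samples, since each group is 1 library. Members and gene lists were chosen with earlier results of these data known. Genes to name were drawn from the 13 mitochondrial members, the Sdh genes, the alternative copies and up to 3 genes of each list. The 5 highest and 5 lowest nuclear ratios of each comparison were added. Not all of these genes are given in the text, and the steadiest members were named by their SD. Coordinates and overlaps come from GENCODE M21 (GRCm38), which matched all 98 members; 28 nuclear members overlap a gene on the other strand. Alternatives were TMM factors from edgeR 4.0.16, other filters, folds, resolutions, marker gates and class mixes. The calculation was tested on simulated data.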

Additional observations from a re-analysis of the deposited data

Results flagged for a closer look

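The summed mitochondrial members of GFP high over GFP low went opposite ways in a pair of classes. The ratio was 1.82 (1.80 to 1.84) in Merkel cell-like cells, with 38628 CPM in 67 GFP high cells against 21213 CPM in 144 GFP low cells, and 0.827 (0.825 to 0.828) in hair-cell-like cells, with 64006 against 77401 CPM. With the hair cell cluster mix of GFP low, the log2 ratio in hair-cell-like cells was 0.04 against -0.27. With at most 10% mitochondrial UMIs it was -0.07. The ratio was 1.5 in supporting-cell-like and 1.23 in neuron-like cells, and 0.861 in epidermis-like and 0.827 in muscle-like cells. The difference between the classes was not tested, since each gate is 1 library.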

How the results depend on the processing

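No paired analysis was possible because each group is 1 library and the labels carry no replicate numbers. For the same reason no replicate could be left out. Between GFP high and GFP low as a whole, the log2 ratio of the nuclear sum was 0.14. With the class mix of GFP low it was -0.05, with Atp5mpl at -0.21 and Ndufv3 at -0.06. That mix gave 2 nuclear and 0 mitochondrial members called, against 4 and 2, beside 10.7% of all genes against 28.5%. Without that mix, the nuclear count was 7 with no minimum CPM and 1 at 2-fold. The mitochondrial count was 0 at 2-fold, 1 with the mean of per-cell CPM and 1 without the mitochondrial maximum. All genes were called at 32.1% with no minimum CPM, 14.5% at 2-fold, 28% with the per-cell mean and 27.7% without the maximum. TMM scaling, which shifts these log2 ratios by 0.12, turned the nuclear split from 2 higher and 2 lower to 5 and 1. It called 28.8% of all genes. Between day 20 and day 16 the nuclear count was 10, beside 33.2% of all genes called, and 2 at 2-fold, beside 11.9%. With the class mix of day 16 it was 7, all higher, and the mitochondrial count 8 against 12, beside 20.8% of all genes. In hair-cell-like cells the log2 ratio of the nuclear sum between the gates was -0.05. It was 0.01 with marker gates and 0.02 with the cluster mix of GFP low. The mitochondrial log2 ratio was -0.27, and 0.04 with that mix. With marker gates it was -0.07, and with at most 10% mitochondrial UMIs -0.07. The nuclear count of 2 there was 0 at 2-fold, 1 at 10% mitochondrial UMIs and 4 at resolution 0.5. All genes were called at 12.3% in the main setting and at 5.33%, 12.8% and 14% in these. With the cluster mix the nuclear count was again 2, both lower, without Cox6b2 and Cox7a2l, beside 4.95% of all genes called. Between hair-cell-like and supporting-cell-like cells the counts at 2-fold were 13 of 81 nuclear and 1 of 13 mitochondrial members in GFP high. In GFP low they were 20 of 81 and 10 of 13. The shares of all genes called at 2-fold were 33.5% in GFP high and 37.5% in GFP low. Over named members, 929 of 1016 values kept direction and side of the rule, 66 no longer passed, 19 newly passed and 2 changed sign. The cluster mix and the day comparison without the low-depth mesenchyme-like cluster were chosen after seeing the data. Resolution 0.5 was not run for supporting-cell-like cells, which formed no class there. The causes of these shifts were not tested.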

Other observations

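A mesenchyme-like cluster of low depth, led by Col1a1, Col1a2 and Col3a1, had a median of 2379 UMIs per cell at day 20 and 2694 at day 16. Its nuclear members summed to 8860 CPM at day 20 against 7606 CPM at day 16 and its mitochondrial members to 26156 against 76009 CPM. The unnamed cluster led by Car3, Spp1 and Lgals3 had 3057 CPM of Ndufa4l2 in 174 day 20 cells. The unnamed cluster led by Otol1, Pvalb and Otof held 163 GFP high cells with a median of 48723 UMIs, and Ndufa4l2 took 36% of its pair there.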
